A study of Homo sapiens with 12 samples.

Results

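The kallikrein-related proteases are secreted serine proteases, and 6 genes of the family, KLK5, KLK6, KLK7, KLK8, KLK10 and KLK11, were taken by their symbols from a table of read counts over 16271 genes. The counts come from total RNA of the human keratinocyte line HaCaT, which became immortal spontaneously in culture, in 12 libraries, 3 in each of 4 groups. Wild type (WT) and VDR knockout (VDR KO) cells were each left untreated or given 1,25(OH)2D3 for 8 h. VDR encodes the vitamin D receptor, and 1,25(OH)2D3 (calcitriol) is the hormone that binds it. All cells were grown in DMEM with fetal bovine serum. Dose, vehicle, the edit made to VDR and how many clones were used are unknown here, since no source used here states them. The design thus asks how the proteases respond to the hormone with and without the edit to its receptor.

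In the epidermis these enzymes are made as inactive precursors, secreted by keratinocytes of the upper layers and activated by other proteases or by each other. KLK5, a trypsin-like enzyme, can activate itself and further kallikreins, and KLK7, a chymotrypsin-like enzyme, cuts the proteins of the junctions that hold the cells of the cornified layer together, so that dead cells are shed. The inhibitor LEKTI, encoded by SPINK5, holds KLK5 and KLK7 in check, and its loss causes Netherton syndrome, a disease of scaling and barrier failure. KLK8 (neuropsin), KLK6 (neurosin) and KLK11 are trypsin-like members that were also described in the nervous system, and KLK10 was first described as a gene of normal epithelial cells that is lost in some tumours. Vitamin D acts on keratinocytes through VDR, which binds DNA as a heterodimer with the retinoid X receptor at direct repeats of a hexamer.

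Libraries held between 11.49 and 15.99 M counts (M, 1e6 counts). CYP24A1, the textbook target of the receptor, averaged 48.0 CPM (counts per 1e6) before and 1676 CPM after treatment of wild type cells, against 16.9 and 12.2 CPM in the knockout. VDR RNA was counted in every library, so these counts do not check the edit. All 7 keratinocyte markers were counted, and the knockout had 6 of them lower than wild type without treatment. Summed, they reached 3130 to 3600 CPM in wild type libraries before and 3270 to 3300 CPM after treatment, and 1340 to 1350 and 1250 to 1420 CPM in the knockout. Replicate 3 of the untreated wild type cells was apart from its group, with -28.7 on the first principal component of log2 CPM, whereas its fellow untreated wild type libraries lay at -49.7 and -51.3. The labels describe replicates on a 6-well plate and do not say whether they were separate cultures, so the spread behind each p-value is that of these libraries and may be technical. In bulk RNA, fewer cells expressing a gene and less RNA per cell cannot be told apart.

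The members lie next to each other, among counted genes only, on the minus strand of chromosome 19 in GENCODE v29 on GRCh38, in the order KLK5 (ENSG00000167754, chr19:50943303-50953093), KLK6 (ENSG00000167755, chr19:50958631-50969673), KLK7 (ENSG00000169035, chr19:50976482-50984099), KLK8 (ENSG00000129455, chr19:50996007-51002711), KLK10 (ENSG00000129451, chr19:51012739-51020175) and KLK11 (ENSG00000167757, chr19:51022216-51028039). They span 84.7 kb of a cluster of 265 kb that holds 15 annotated kallikrein genes, and the other 9 kallikreins were not analysed here. The shortest gap between counted members, 2.04 kb, separates KLK10 from KLK11. KLK8 overlaps an annotated protein-coding gene on its own strand, AC011473.4, KLK6 overlaps AC011483.3 on its own strand, and KLK5, KLK6, KLK7, KLK8 and KLK10 overlap annotated antisense genes. No source used here says whether the counting used strand, so reads of a member and its antisense partner, and those of KLK8 or KLK6 and the gene on the same strand, cannot be told apart.

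RefSeq promoter windows on GRCh38.p14, from 250 bases before to 50 bases after a start site, were found for 5 of the 6 members, all but KLK8, in 9 windows. They were searched on both strands for 4 motifs because the 5 tested members, KLK8 among them and KLK6 not, moved together in treated wild type cells. The vitamin D response element was taken as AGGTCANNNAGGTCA, and the hexamer AGTTCA was allowed in either place, as was the hexamer GGGTCA and also the hexamer GGTTCA. It was in 0 of the 9 windows and in 0.074% (26) of the 35116 windows of 300 bases. A single such hexamer was in 1 member window, of KLK10, and in 38.6% of all windows. The AP-1 motif TGANTCA was in 0 member windows and in 7.71% of all, and TATAA was near a start of KLK5 and of KLK7 and in 20.4% of all. A match describes letters and is no shown site, and a missing match says only that these letters are not in this window. The 3 stretches that hold a match follow, on the minus strand, with the matched letters in capitals. KLK5 is chr19:50953050-50953079, 29 bases before the start, where TATAA matches overlap on both strands. KLK7 is chr19:50983927-50983956, 27 bases before a RefSeq start and 129 bases before another. KLK10 is chr19:51019978-51020007, 134 bases before a start, where the hexamer reads in reverse. All 3 stretches lie within the GENCODE v29 spans of their genes.
KLK5: agcagtgggtggTTATAActcaggcccggt
KLK7: ggcggggggtgaTATAAgaggacggcccag
KLK10: ttgctggggacgTGAACCctctccccgcgc

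The upstream stretches of KLK5 and KLK11 are shown together because both genes rose in treated wild type cells while their levels in untreated knockout cells differed from wild type in opposite directions. KLK5 is chr19:50953094-50953288 and KLK11 is chr19:51027704-51027896, both on the minus strand of GRCh38.p14 from RefSeq and outside annotated exons. The KLK11 stretch lies within the GENCODE v29 span of KLK11, before a RefSeq start inside that span. Neither holds a match to the 4 motifs, so no letters are in capitals.
KLK5 upstream: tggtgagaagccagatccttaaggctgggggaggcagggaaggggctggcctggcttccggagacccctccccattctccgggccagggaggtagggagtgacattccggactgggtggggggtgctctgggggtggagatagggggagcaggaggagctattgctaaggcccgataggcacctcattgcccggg
KLK11 upstream: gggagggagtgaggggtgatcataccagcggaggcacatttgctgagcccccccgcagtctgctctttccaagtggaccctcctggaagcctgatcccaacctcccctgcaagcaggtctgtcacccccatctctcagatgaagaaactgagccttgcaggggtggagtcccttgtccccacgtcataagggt

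Levels of different genes were ranked only per kilobase of annotated exon, and on that scale KLK5 had the highest mean level in every group. The length is that of all annotated exons of a gene merged, 1653 bases for KLK5, 1865 for KLK8 and 3853 for KLK10. Which transcripts the cells made is unknown here. Before division by length KLK10 had the highest mean in every group, as with 112.8 CPM against 74.34 CPM for KLK5 in untreated wild type cells. The order of KLK5, KLK8 and KLK10 thus depends on these lengths. In untreated wild type cells KLK5 stood at 45.0 ± 7.20 CPM per kb (SD, n = 3), KLK10 at 29.3 ± 8.22, KLK8 at 19.3 ± 1.59, KLK11 at 1.59 ± 0.273 and KLK7 at 0.806 ± 0.249. KLK6 was lowest, at 0.104 ± 0.0922 CPM per kb. KLK10 and KLK8 overlapped in that group and the other neighbours in the order did not. In treated wild type cells the same order held with no overlap, from 72.1 ± 2.68 CPM per kb for KLK5 and 49.9 ± 2.19 for KLK10 to 0.418 ± 0.0496 for KLK6. In untreated knockout cells the mean of KLK8 (21.6 ± 1.42 CPM per kb) stood above that of KLK10 (21.1 ± 0.956), with overlap. In treated knockout cells KLK8 (18.5 ± 1.43 CPM per kb) was above KLK10 (15.1 ± 0.513) without overlap. KLK11, KLK7 and KLK6 followed in that order in every group.

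**Figure D1:**
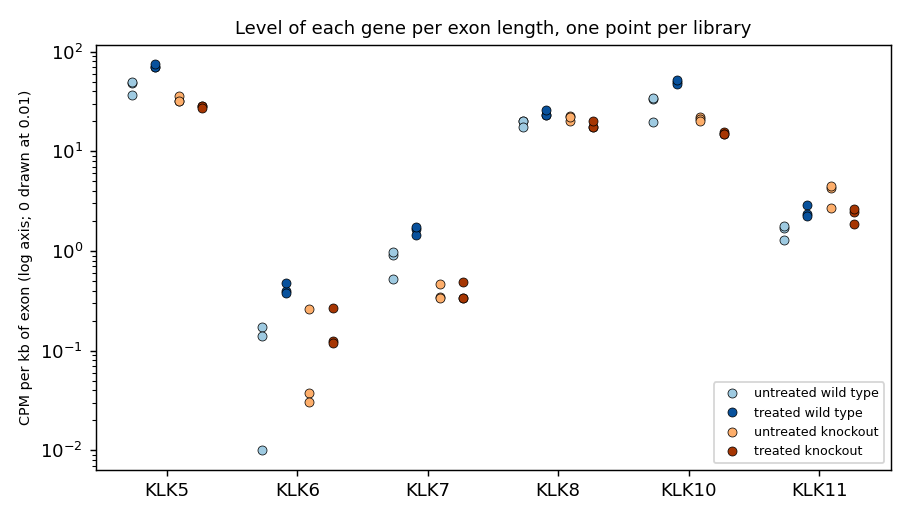
CPM per kb of annotated exon on a log axis for the 6 genes, with a point for each of the 12 libraries coloured by group and a level of 0 drawn at the bottom. KLK5, KLK8 and KLK10 sit between 14.8 and 75.2 CPM per kb in all libraries, and KLK11, KLK7 and KLK6 sit below 5.

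Treatment of wild type cells was the first comparison, and all 5 members that could be tested rose in it. KLK7 rose most, about 2-fold, KLK10, KLK5 and KLK11 rose 1.71-fold, 1.6-fold and 1.57-fold, and KLK8 rose 1.26-fold. Of the 14676 genes tested, 11.5% were called higher and 13.0% lower in this comparison, by edgeR's quasi-likelihood test with Benjamini-Hochberg adjusted p below 0.05. The 3 treated libraries were above the 3 untreated ones for all 5 members, which held for 19.9% of all genes tested, while the reverse held for 19.4%. The median log2 fold change of the 5 members was 0.68, beside 0.00 over all genes tested. KLK6 did not pass the filter on low counts and is described from its counts further on. Endothelial and immune markers moved with this comparison: 1 of 3 endothelial markers (CDH5) was counted, at 2.62 to 5.95 CPM untreated and 7.58 to 8.19 CPM treated, and 1 of 4 immune markers (CD68), at 7.1 to 12.4 and 13.5 to 15.1 CPM. Their part in the result was not tested.

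KLK5, the activator of the group, stood at 80.9, 81.5 and 60.6 CPM in untreated wild type replicates 1, 2 and 3 and at 116, 117 and 124 CPM in the treated ones. Every treated library was above every untreated one, and untreated replicate 3 was the lowest. The log2 fold change was 0.68 ± 0.09 (SE, n = 3 per group, adjusted p = 0.000158). KLK7, the main chymotrypsin-like enzyme of shedding, stood at 2.24, 2.38 and 1.27 CPM untreated and at 4.02, 3.51 and 4.21 CPM treated. The groups did not overlap, and the same untreated library was lowest. The log2 fold change was 1.00 ± 0.24 (adjusted p = 0.00641), from 15 to 26 counts per untreated and 45 to 56 per treated library.

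KLK8, a trypsin-like enzyme that KLK5 can activate, stood at 37.9, 37.4 and 32.5 CPM untreated and at 43.4, 43.6 and 48.5 CPM treated. The groups did not overlap, although the rise was the smallest of the 5 (0.33 ± 0.09, adjusted p = 0.0135). KLK10 stood at 129.9, 132 and 76.2 CPM in untreated cells, against 192, 184 and 201 CPM in treated cells. Its groups did not overlap, with a log2 fold change of 0.77 ± 0.16 (adjusted p = 0.00461). KLK11, another trypsin-like enzyme, stood at 5.26, 5.58 and 3.97 CPM untreated and at 8.91, 7.33 and 7.06 CPM treated. The groups did not overlap, and the log2 fold change was 0.66 ± 0.20 (adjusted p = 0.0279).

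Untreated wild type replicate 3 was the lowest of its group for all 6 members. On the log2 scale it lay below the mean of the other untreated wild type libraries by a difference of -0.42 for KLK5, -0.67 for KLK7, -0.21 for KLK8, -0.78 for KLK10 and -0.40 for KLK11, where the median over all genes tested was 0.00 and the median size 0.21. For KLK10, 2.29% of genes tested lay as low or lower. Without that library the log2 fold changes with treatment were 0.56 ± 0.07 for KLK5 (adjusted p = 8.81e-06), 0.77 ± 0.25 for KLK7 (0.0288), 0.27 ± 0.09 for KLK8 (0.0325) and 0.56 ± 0.06 for KLK10 (3.06e-06). KLK11 no longer passed without it (0.52 ± 0.21, adjusted p = 0.0808), nor without treated wild type replicate 1 (0.55 ± 0.23, adjusted p = 0.113). KLK8 no longer passed without treated wild type replicate 3 (0.29 ± 0.10, adjusted p = 0.0705).

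**Figure D2:**
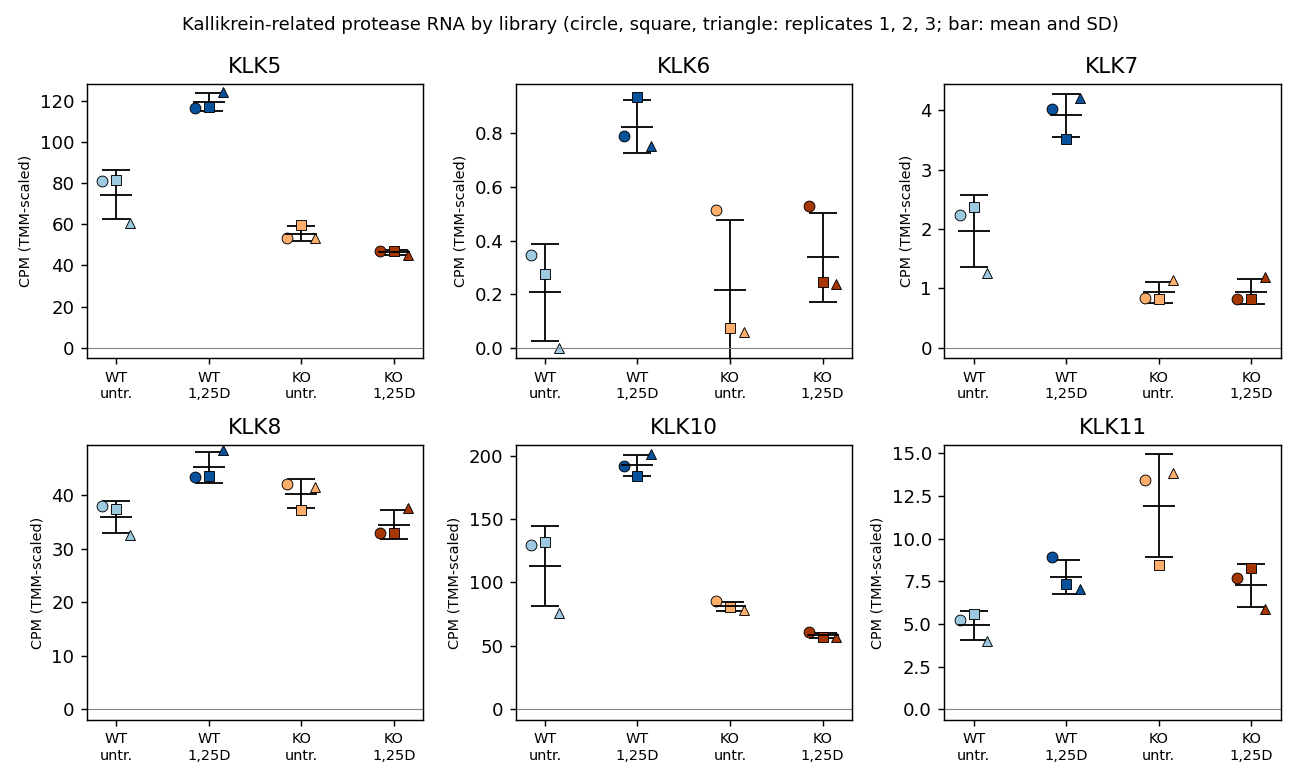
TMM-scaled CPM of each gene in its own panel, by group, with circles, squares and triangles for replicates 1, 2 and 3 and bars for the mean and SD. For all genes but KLK11 the 3 treated wild type libraries are the highest of the 12, while for KLK11 the untreated knockout libraries hold the 2 highest values, 13.5 and 13.9 CPM.

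In knockout cells none of the 5 members was called with treatment by edgeR's quasi-likelihood test, and 4 of the 5 had lower means in treated cells. All 4 of these had an unadjusted p below 0.05. DESeq2 called 2 of them lower (KLK10, adjusted p = 0.0292, and KLK11, adjusted p = 0.0177), and limma called 0. Of all genes tested, 0.913% were called higher and 1.64% lower, and the median log2 fold change was -0.25 for the members and 0.00 over all genes tested. All 3 treated libraries were below all 3 untreated ones for KLK5, KLK10 and KLK11, as for 15.9% of all genes tested, while 15.7% had the reverse. The calls depend on untreated wild type replicate 3 through the shared estimate of spread. Without that library KLK5, KLK8, KLK10 and KLK11 were all called lower, in a fit that called 6.93% of all genes higher and 9.06% lower. With the knockout libraries fitted alone KLK5 (adjusted p = 0.0333), KLK10 (0.000428) and KLK11 (0.0364) were called lower, in a fit that called 5.79% of all genes higher and 6.55% lower.

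KLK11 had the largest difference in knockout cells, at 13.5, 8.48 and 13.9 CPM in untreated replicates 1, 2 and 3 against 7.68, 8.29 and 5.86 CPM in treated ones. The groups did not overlap, with untreated replicate 2 close to the highest treated library. The log2 fold change was -0.72 ± 0.19 and missed the threshold narrowly (adjusted p = 0.05001). KLK10 stood at 85.2, 80.5 and 78.0 CPM untreated and at 60.6, 57.0 and 57.3 CPM treated. These groups did not overlap either, and the value was -0.48 ± 0.16 (adjusted p = 0.123), or -0.49 ± 0.06 (adjusted p = 2.52e-05) without untreated wild type replicate 3.

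KLK5 stood at 53.2, 59.5 and 53.4 CPM in untreated and at 47.2, 47.0 and 44.9 CPM in treated knockout cells, again without overlap (-0.25 ± 0.10, adjusted p = 0.147). KLK8 stood at 42.1, 37.2 and 41.4 CPM untreated and at 33.0, 32.8 and 37.5 CPM treated. Its groups overlapped, since the highest treated library was above the lowest untreated one (-0.23 ± 0.09, adjusted p = 0.157). KLK7 stood at 0.838, 0.826 and 1.14 CPM untreated and at 0.829, 0.821 and 1.19 CPM treated, with overlap and a log2 fold change of 0.01 ± 0.32. At 10 to 19 counts per knockout library, its standard error allows changes of either sign.

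The treatment response itself differed between the genotypes for 4 of the 5 members, tested as the response in knockout cells minus that in wild type cells. In this comparison 13.8% of all genes tested were called higher and 12.5% lower. The difference was -1.37 ± 0.28 for KLK11 (adjusted p = 0.00205), -1.25 ± 0.23 for KLK10 (0.00226), -0.94 ± 0.14 for KLK5 (0.000252) and -0.56 ± 0.13 for KLK8 (0.00443). KLK7 had a difference of similar size, -0.99 ± 0.40, that did not pass (adjusted p = 0.0756). The median over the members was -0.99, beside -0.01 over all genes tested. The endothelial marker CDH5 (-1.14 ± 0.30, adjusted p = 0.0102) and the immune marker CD68 (-0.83 ± 0.25, adjusted p = 0.0231) were also called lower, and their part was not tested. Without untreated wild type replicate 3 the same 4 genes were called, at -1.25 for KLK11, -1.05 for KLK10, -0.82 for KLK5 and -0.50 for KLK8. That fit called 12.9% of all genes higher and 13.4% lower.

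**Figure D3:**
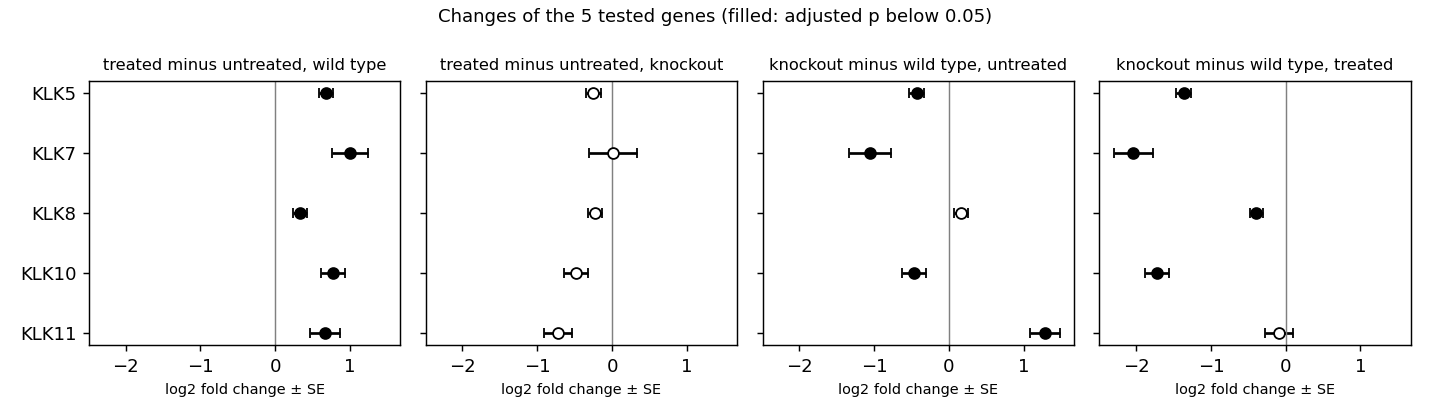
Log2 fold change with its standard error for the 5 tested genes in the 4 comparisons between groups, with filled points for adjusted p below 0.05. All 5 points are right of 0 for treatment of wild type cells, and KLK11 is the only 1 of the 5 right of 0 and filled for knockout against wild type in untreated cells.

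Between genotypes in untreated cells, the members split: KLK7, KLK10 and KLK5 were lower in knockout cells and KLK11 was higher. KLK7 was 2.06-fold lower (log2 fold change -1.05 ± 0.28, adjusted p = 0.00355), KLK5 1.34-fold lower (-0.43 ± 0.10, adjusted p = 0.000842) and KLK10 1.39-fold lower (-0.47 ± 0.16, adjusted p = 0.019). KLK11 was 2.43-fold higher (1.28 ± 0.20, adjusted p = 2.12e-05), with a mean of 11.9 ± 3.00 CPM (SD, n = 3) against 4.94 ± 0.850 CPM. KLK8 did not pass (0.16 ± 0.09, adjusted p = 0.11). Calls were common here, with 35.5% of all genes tested higher and 34.2% lower, so that 3 of 5 lower and 1 of 5 higher are read against that background. The groups of KLK5 and KLK7, lower in the knockout, and of KLK11, higher in it, did not overlap, where 33.5% of all genes tested were lower and 35.7% higher without overlap.

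KLK10 rested on its libraries in this comparison, since untreated wild type replicate 3 (76.2 CPM) was below all 3 untreated knockout libraries. Without that library it was at -0.69 (adjusted p = 2.93e-09), and without untreated wild type replicate 1 or 2 it did not pass (-0.36, adjusted p = 0.0934, and -0.34, adjusted p = 0.0837). It also missed the threshold without untreated knockout replicate 2 (adjusted p = 0.0505) or 3 (0.0574). Without untreated wild type replicate 3, KLK5 was at -0.56, KLK7 at -1.29, KLK8 at 0.09 and KLK11 at 1.14. The keratinocyte markers also differed between the genotypes, with a median log2 fold change of -1.17 in untreated and -1.59 in treated cells, and so did markers of other cell types. Of 3 fibroblast markers counted out of 7, 2 were tested and LUM was lower in knockout cells (-2.15 untreated and -3.50 treated). The summed level of the 3 was 4.2 to 20.6 CPM in untreated and 3.91 to 13.1 CPM in treated wild type libraries, and 4.19 to 4.62 and 1.96 to 6.42 CPM in the knockout. The 20.6 CPM was untreated wild type replicate 3, where COL1A1 was at 17.4 CPM against 1.81 and 1.74 CPM in replicates 1 and 2. CD68 was lower in untreated and in treated knockout cells (-1.02 and -1.85), at 4.2 to 5.41 CPM untreated and 3.56 to 4.27 CPM treated, and CDH5 in treated cells (adjusted p = 0.000309), at 3.77 to 4.12 CPM. PMEL, the 1 of 5 melanocyte markers counted, passed in neither, and of 4 gland markers 0 were counted. The part of these markers in the differences of the members was not tested.

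In treated cells the genotypes stood further apart, and 4 of the 5 members were lower in knockout cells. KLK7 was 4.11-fold lower (-2.04 ± 0.26, adjusted p = 2.2e-06), KLK10 3.3-fold (-1.72 ± 0.16, adjusted p = 1.03e-06), KLK5 2.57-fold (-1.36 ± 0.10, adjusted p = 1.69e-09) and KLK8 1.31-fold (-0.39 ± 0.09, adjusted p = 0.00077). None of these 4 overlapped between the groups. Of all genes tested, 39.8% were lower and 41.1% higher in knockout cells without overlap. KLK11, the member that was higher in untreated knockout cells, did not pass in treated cells (-0.09 ± 0.19, adjusted p = 0.671), at means of 7.28 ± 1.27 CPM in knockout and 7.77 ± 0.999 CPM in wild type cells. Of all genes tested, 38.4% were called higher and 37.4% lower. The median was -1.36 over the members and 0.02 over all genes tested. The 4 comparisons between groups share libraries, so their values are given side by side and are not independent of each other.

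KLK6, a trypsin-like enzyme, was counted too rarely to be tested with the other members. Its counts were 4, 3 and 0 in untreated and 10, 12 and 10 in treated wild type cells, and 8, 1 and 1 in untreated and 7, 3 and 3 in treated knockout cells. The wild type groups did not overlap and the knockout groups did. Summed over the group, treated wild type cells held 4.05 times the level of untreated ones (95% interval 1.76 to 10.9), and treated knockout cells 1.55 times (0.629 to 3.96). The ratio of knockout to wild type cells was 1.08 (0.371 to 3.34) untreated and 0.414 (0.199 to 0.811) treated. These intervals are exact and cover counting error only, not the spread between libraries. Without the filter on low counts, edgeR gave KLK6 a log2 fold change with treatment of 1.97 ± 0.68 in wild type cells (adjusted p = 0.047), which passed, and of 0.60 ± 0.75 in the knockout (adjusted p = 0.693), which did not. The difference of these responses did not pass (-1.37 ± 1.06, adjusted p = 0.383). Nor did knockout against wild type, untreated (0.11 ± 0.86, adjusted p = 0.92) or treated (-1.26 ± 0.60, adjusted p = 0.0697, or 0.126 with DESeq2), although the counting interval in treated cells lies below 1.

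The summed level of the 6 genes was 230 ± 48.1 CPM (SD, n = 3) in wild type cells before and 369 ± 15 CPM after treatment, and 190 ± 4.72 and 148 ± 1.85 CPM in the knockout. Shares and ratios of counts depend on gene length, so they are compared between groups and not between genes. Of the counts of the 6 genes, KLK10 held 48.4%, 52.1%, 42.8% and 39.5% in these groups in that order, and KLK5 held 32.6%, 32.3%, 29.2% and 31.4%. KLK11 held 2.16 ± 0.113% in untreated and 2.11 ± 0.309% in treated wild type cells, and 6.27 ± 1.52% and 4.93 ± 0.861% in knockout cells. Ratios within a library do not depend on its scaling. KLK10 and KLK11, which are neighbours, had count ratios of 24.7, 23.7 and 19.2 in untreated and 21.5, 25.1 and 28.5 in treated wild type libraries, against 6.33, 9.49 and 5.62 in untreated and 7.88, 6.87 and 9.78 in treated knockout libraries. Every wild type library was above every knockout library, while treated and untreated libraries of a genotype overlapped. The ratio of KLK5 to KLK11 likewise averaged 15.1 and 15.5 in wild type and 4.94 and 6.49 in knockout cells. The ratio of KLK5 to KLK10 moved less, at 0.678 ± 0.101, 0.620 ± 0.0147, 0.683 ± 0.0581 and 0.796 ± 0.0259 in the 4 groups in the same order.

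**Figure D4:**
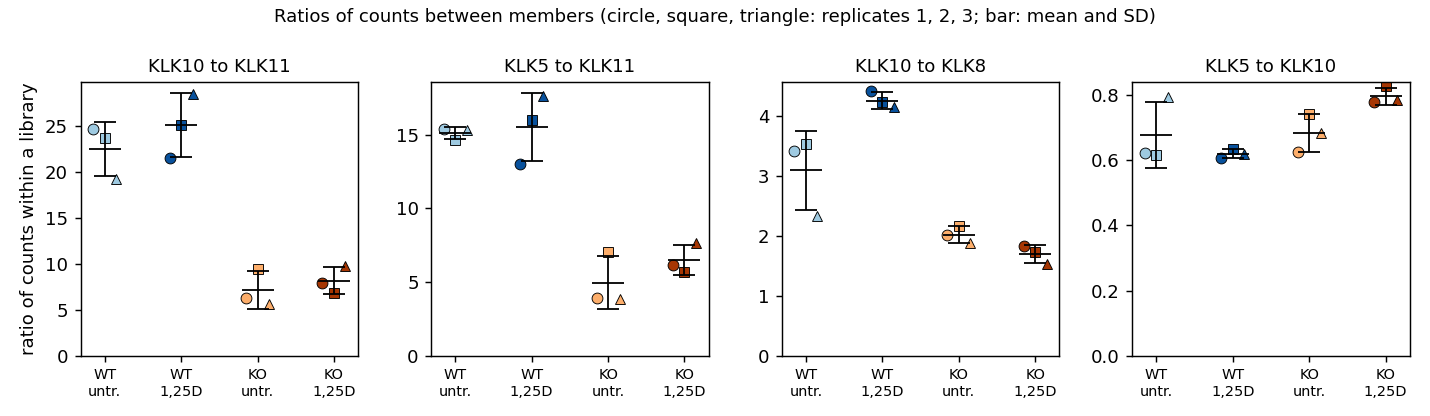
Ratio of counts of a pair of genes within a library, by group, in 4 panels with symbols for replicates 1, 2 and 3 and bars for the mean and SD. The ratio of KLK10 to KLK11 lies between 19.2 and 28.5 in the 6 wild type libraries and between 5.62 and 9.78 in the 6 knockout libraries.

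Over the 12 libraries, the profiles of the members were compared by the root mean square difference of log2 CPM after centring each gene on its mean. KLK5 and KLK10 were the closest pair of the 5 tested members (0.165), and KLK7 was nearer to these (0.244 to KLK5, 0.227 to KLK10) than to KLK8 (0.592). KLK7 and KLK11 were furthest apart (0.932). The genes outside the cluster with the most similar profile to KLK5 were PDIA3 (0.047) and CTSB (0.062). For KLK10 they were UNC119 (0.091) and LRP10 (0.097), for KLK7 PCNXL3 (0.150) and DOLK (0.156), and for KLK8 HSPH1 (0.054) and PROSC (0.060). KLK11 had no gene as close, with C6orf141 (0.178) and CCDC80 (0.192) nearest. KLK8 varied least, over a range of 0.57 on the log2 scale, which leaves less room for a difference than the 1.46 to 1.83 of the other 4.

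Of the 2 nearest counted genes on either side of the cluster, none was called with treatment of wild type cells by edgeR. Unadjusted p was below 0.05 for C19orf48. CTU1, a tRNA thiolation enzyme gene 69.6 kb beyond KLK11, had a log2 fold change of 0.03 ± 0.10 (adjusted p = 0.845), and VSIG10L, further on, one of 0.18 ± 0.38. On the side of KLK5, C19orf48 was at -0.20 ± 0.08 (adjusted p = 0.0939). SNORD88C, a small nucleolar RNA gene inside it and 141 kb from KLK5, was at 0.05 ± 0.09. With treatment of knockout cells none of these genes was called either. There SNORD88C was at -0.26 ± 0.09 (adjusted p = 0.126), lower without overlap, beside -0.25 ± 0.10 for KLK5. C19orf48 was at 0.12 ± 0.08, CTU1 at 0.17 ± 0.11 and VSIG10L at -0.22 ± 0.28. The difference between these genes and the members was not tested. CTU1 was lower in knockout cells both untreated (-0.84 ± 0.10, adjusted p = 1.91e-06) and treated (-0.71 ± 0.10, adjusted p = 1e-05), like KLK5, KLK7 and KLK10, whereas VSIG10L was higher both untreated (1.33 ± 0.33, adjusted p = 0.00185) and treated (0.93 ± 0.33, adjusted p = 0.0173). C19orf48 was lower in untreated knockout cells (-0.39 ± 0.08, adjusted p = 0.000522) and did not pass in treated ones (-0.07 ± 0.08, adjusted p = 0.469), and SNORD88C was lower in both (-0.23 and -0.54).

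**Figure D5:**
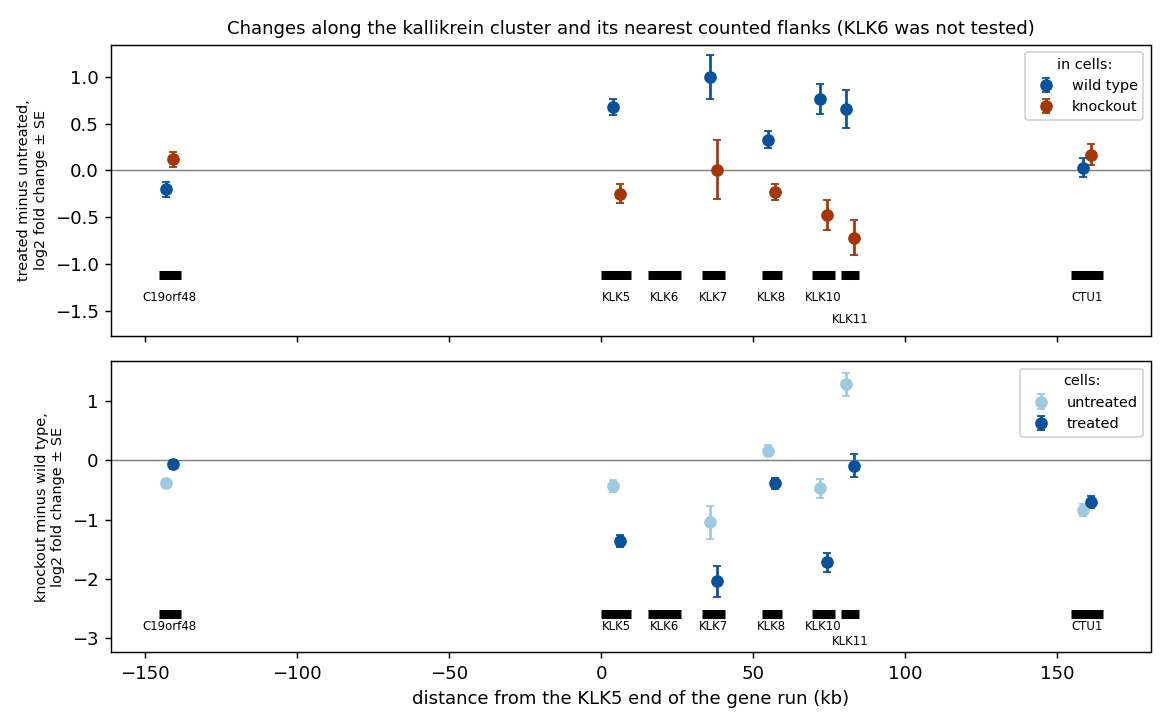
Log2 fold change with its standard error at each gene's place along the cluster, as distance in kb from the KLK5 end, for treatment (upper panel) and genotype (lower panel), with black bars for the genes. The 5 tested members lie above 0 with treatment of wild type cells (0.33 to 1.00) between flanking genes at -0.20 and 0.03. SNORD88C and VSIG10L are not drawn.

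Inhibitors of these enzymes were the first of 4 pathway lists. Of 13 listed, 4 were tested, and in treated wild type cells SPINT1 (0.76 ± 0.11, adjusted p = 0.000199) and SPINT2 (0.52 ± 0.11, adjusted p = 0.00441), which encode membrane-bound Kunitz inhibitors, rose. In that comparison 11.5% of all genes tested were called higher and 13.0% lower. None of the 4 was called lower by edgeR, DESeq2 or limma, and 1 was lower at an unadjusted p below 0.05 in edgeR. SPINK5, the gene of LEKTI, was at 3.62 ± 0.721 CPM untreated and 2.28 ± 0.746 CPM treated (-0.67 ± 0.27, adjusted p = 0.0874). In knockout cells SPINK5 was higher than in wild type cells, unlike KLK5 and KLK7, by 1.69 ± 0.23 in untreated cells (adjusted p = 8.11e-06) and 2.55 ± 0.24 in treated cells (adjusted p = 1.06e-07). SPINT1 and SPINT2 were lower in knockout cells, like KLK5, KLK7 and KLK10, with SPINT1 at -0.75 ± 0.11 untreated and -1.77 ± 0.11 treated. With treatment of knockout cells 0 of the 4 inhibitors passed by edgeR or limma, and 2 were lower by DESeq2, as were 3.13% of all genes. At an unadjusted p below 0.05 in edgeR there were 3. The treatment response differed between genotypes for 3 of the 4, all lower in knockout cells, among them SPINT1 (-1.01 ± 0.15, adjusted p = 0.000374). For this difference 12.5% of all genes tested were called lower.

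Of 14 activating or parallel epidermal proteases, 9 were tested, and 3 rose and 3 fell in treated wild type cells. Over all genes tested, 11.5% were called higher and 13.0% lower there. The lysosomal protease genes CTSD (0.78 ± 0.13, adjusted p = 0.00092) and CTSC (0.36 ± 0.07, adjusted p = 0.00178) rose, and the serine protease genes TMPRSS4 (-0.42 ± 0.08, adjusted p = 0.00202) and PRSS3 (-0.59 ± 0.12, adjusted p = 0.00243) fell. PRSS8, also a serine protease gene, rose too (0.55 ± 0.13, adjusted p = 0.00448). In treated knockout cells 1 fell by edgeR, PLAU, the gene of urokinase (-0.43 ± 0.08, adjusted p = 0.0159), as did 1.64% of all genes tested. DESeq2 called 2 lower (3.13% of all genes) and limma 1 (0.954%), and 3 were lower at an unadjusted p below 0.05 in edgeR. PLAU also fell in treated wild type cells (-0.26 ± 0.08, adjusted p = 0.0225). The difference of its responses did not pass (-0.17 ± 0.11, adjusted p = 0.287). For that difference 2 of the 9 were called higher and 4 lower, where 13.8% of all genes tested were higher and 12.5% lower. In knockout against wild type cells 5 were higher and 4 lower untreated, where 35.5% of all genes tested were higher and 34.2% lower. In treated cells 3 were higher and 4 lower, where 38.4% of all genes were higher and 37.4% lower.

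Of 12 listed substrates, 8 were tested, and CDSN, DSG1, DSC1 and CAMP were not in the count table. Whether the enzymes cut the listed proteins in these cells was not tested. In treated wild type cells CDH1, which encodes E-cadherin (0.65 ± 0.10, adjusted p = 0.000425), DSP, which encodes desmoplakin (0.98 ± 0.17, adjusted p = 0.00228), and SMPD1, an acid sphingomyelinase gene (0.71 ± 0.19, adjusted p = 0.0125), rose. IL1B, the cytokine gene, fell (-0.94 ± 0.14, adjusted p = 0.000236). Over all genes tested, 11.5% were called higher and 13.0% lower there. With treatment of knockout cells 0 passed by edgeR or limma and 1 was lower by DESeq2, with 2 higher and 1 lower at an unadjusted p below 0.05 in edgeR. In untreated knockout cells 4 were higher and 2 lower than in wild type cells, where 35.5% of all genes tested were higher and 34.2% lower. In treated cells 3 were higher and 4 lower, where 38.4% of all genes were higher and 37.4% lower.

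Genes of late differentiation made up the last list. In treated wild type cells, of 14 tested out of 19 listed, edgeR called 0 higher and 2 lower, PRDM1 (-1.20 ± 0.19, adjusted p = 0.000456) and EHF (-0.44 ± 0.09, adjusted p = 0.00276), both transcription factor genes. The median log2 fold change of the 14 was -0.31, beside 0.68 for the 5 proteases and 0.00 over all genes tested. In that comparison edgeR called 11.5% of all genes tested higher and 13.0% lower. DESeq2 called 0 higher and limma 1, and at an unadjusted p below 0.05 in edgeR 0 were higher and 4 lower. With treatment of knockout cells 0 passed by edgeR, limma or DESeq2, and 4 were lower at an unadjusted p below 0.05 in edgeR. Between genotypes 6 were higher and 6 lower in untreated knockout cells, where 35.5% of all genes tested were higher and 34.2% lower. In treated knockout cells 6 were higher and 8 lower, where 38.4% of all genes were higher and 37.4% lower. GRHL3, a regulator of barrier formation, was higher in knockout cells both untreated (3.61 ± 0.15, adjusted p = 8.42e-12) and treated (3.21 ± 0.14, adjusted p = 7.31e-12). The 6 higher in untreated knockout cells, GRHL3, EHF, OVOL1, PRDM1, ABCA12 and GRHL1, were higher in treated ones too. EHF was at 1.85 ± 0.09 untreated and 2.39 ± 0.09 treated. The 6 lower in untreated knockout cells, SPRR1A, SPRR1B, SPRR2A, IVL, TGM1 and KLF4, were lower in treated ones too. SPRR1B was at -3.05 ± 0.28 untreated and -2.69 ± 0.31 treated, and KLF4 at -0.75 ± 0.13 and -1.01 ± 0.13.

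The authors' enrichment tables list members in 3 of the 4 comparisons between groups. For genes higher in treated wild type cells, the authors' deposited table lists KLK5, KLK6, KLK7, KLK10 and KLK11 under serine-type peptidase activity, a term with 31 of 862 listed genes (the authors' adjusted p = 7.6e-11). KLK8 is not among the genes listed for that term, although it was called higher here. For genes lower in treated knockout than treated wild type cells, the authors' deposited table lists KLK5, KLK6, KLK7, KLK8 and KLK10 under the same term, with 51 of 4456 genes (the authors' adjusted p = 0.0281), and KLK5 and KLK8 under cornification (7.49e-05). For untreated cells, the authors' deposited table lists KLK5, KLK7 and KLK10 among the lower genes, with KLK5 and KLK7 under extracellular structure organization (the authors' adjusted p = 1.05e-05) and epidermis development (0.00117), and KLK5 under keratinization (0.00139). Its term with all 3 of them, serine-type endopeptidase activity, did not pass in the authors' deposited table (adjusted p = 0.0733). The authors' deposited table of genes higher in untreated knockout cells lists no member, although KLK11 was called higher here. No member is listed in the authors' deposited table for treatment of knockout cells that was used here, which holds lower genes.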

How the data were processed

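RNA of 12 HaCaT libraries, 3 in each of 4 groups, was analysed from raw read counts per gene that the authors deposited for 16271 human gene IDs. A second deposited table holds CPM, which equal each count over the column total to within 0.005. Deposited enrichment tables were used for 7 lists of genes and not for 5 others. They give p-values, adjusted p-values and the number of listed genes per term, per the file headers, and 99.4 to 100% of their listed genes matched had the sign given here. The submitters' processing notes name BWA 0.5.9 and, as build, mm9 of the mouse, per the labels. Since the IDs are human, the true build and annotation are unknown here, and no source used here names the counting tool. Positions and exon lengths come from GRCh38 with GENCODE v29, where 15524 IDs were found, and promoter windows from RefSeq on GRCh38.p14 (KLK8 had no entry).

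The counts of all 12 libraries were fitted together by edgeR 4.0.16 in R 4.3.3: TMM scaling, the filterByExpr filter (14676 genes kept, 1595 set aside, KLK6 among them), and the robust quasi-likelihood F test with Benjamini-Hochberg adjustment over all genes tested within each of 5 comparisons. Adjusted p below 0.05 was called, with no minimum fold. Standard errors are the log2 fold change over the square root of F. CPM of single genes are scaled by TMM, and their errors are standard deviations. Profiles were compared on log2 of CPM plus 0.5, among genes with a mean of at least 1 CPM. KLK6 intervals are 95% exact binomial (Clopper-Pearson). On simulated counts for treatment of wild type cells over 14676 genes, 71% of 1.5-fold and 94.9% of 2-fold changes were called, and 5 unchanged genes. The simulation gave all genes the same dispersion (0.0117), set no library apart and changed only genes above a low mean count. These rates therefore need not hold for the real libraries.

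The rule names all 6 members in every comparison, any of the other 9 kallikreins in the count table (0 were), the 2 nearest counted flanking genes on each side, the 2 closest profiles per member and, from each pathway list, at most 4 called genes with the smallest adjusted p. SPINK5 is named besides, chosen after its values were seen where it was not called. PRSS8 is likewise named after its values were seen. The 6 late differentiation genes higher and the 6 lower in untreated knockout cells are also named, after their values were seen. The members and lists were chosen with earlier results of these data known. Alternatives were DESeq2's size factors or library size alone as scaling, no filter or at least 1 CPM in 3 libraries, DESeq2 1.42.0, limma 3.58.1 on log2 of the deposited CPM plus 1, stricter thresholds, a replicate block, fits of only the compared groups and fits without each library in turn.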

Additional observations from a re-analysis of the deposited data

Results flagged for a closer look

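The response of 4 members to the hormone differed between the genotypes by the test of the difference itself (edgeR, adjusted over all genes tested). The log2 fold change in knockout minus wild type cells was -0.94 ± 0.14 for KLK5 (adjusted p = 0.000252), -0.56 ± 0.13 for KLK8 (adjusted p = 0.00443), -1.25 ± 0.23 for KLK10 (adjusted p = 0.00226) and -1.37 ± 0.28 for KLK11 (adjusted p = 0.00205). Of all genes tested, 12.5% were called lower for this difference.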

How the results depend on the processing

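No log2 fold change of a member that was called, in the reported fit or under an alternative, changed sign. In treated wild type cells 5 members were called higher (11.5% of all genes). There were 3 at adjusted p below 0.01 (5.56%), 0 at 2-fold or more (0.491%), and 4 to 5 as libraries were left out (6.83% to 12.3%). For treatment of knockout cells, members called lower went from 0 (1.64% of all genes) to 1 with library size alone (2.67%), 1 with no filter (1.7%), 2 with DESeq2 (3.13%) and 3 with the compared groups alone (6.55%), and from 0 to 4 as libraries were left out (0.0541% to 9.06%). In untreated knockout against wild type cells 2 rather than 1 were higher with library size alone and 2 with limma. Library size alone called 42.4% of all genes higher and 27.8% lower, rather than 35.5% and 34.2%, and limma 42.4% and 27.4%. KLK8 was at 0.29 (adjusted p = 0.00706) and 0.28 (adjusted p = 0.0102) in these fits. At 2-fold or more 1 rather than 3 were lower (9.38% of all genes), and 2 to 3 as libraries were left out (31.4% to 35.5%). KLK10 was lost there with library size alone (-0.35, adjusted p = 0.0506), limma (-0.30, 0.0997) and the compared groups alone (0.0563). For the difference of responses 2 rather than 4 were lower at 2-fold or more (1.55% of all genes). There were 4 in every fit with a library left out (8.92% to 14.1%), and limma called KLK7 (-0.74, adjusted p = 0.018). By deposited CPM the mean was 115 for KLK5 in treated wild type and 48.0 in treated knockout cells, and 84.9 and 60.4 for KLK10 in untreated and treated knockout cells. With a replicate block, 5 members were higher with treatment of wild type cells (10.6% of all genes) and 0 lower in knockout cells (0.722%). In that fit, against wild type cells, 1 was higher and 3 lower in untreated knockout cells (35% and 33.6%). In treated knockout cells 4 were lower (37%), and 4 were lower for the difference (11.6%). Same-numbered libraries had correlated deviations of -0.15 to 0.15, above 0.1 in every pair for no 2 groups, and only between untreated wild type and untreated knockout cells did each of the 3 numbers correlate best with itself. Counts of 0 to 12 per library limit KLK6, and 10 to 56 limit KLK7.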
